A study of Mus musculus with 18 samples.

Results

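The first wave of meiosis was followed by comparing whole testis of mice at P14 (postnatal day 14, 3 arrays) with whole testis at P7 (postnatal day 7, 3 arrays), and by asking whether each change was still present at P21 (postnatal day 21, 3 arrays) and in the adult (3 arrays). These 6 arrays of P7 and P14 are part of 18, since the series also holds 3 arrays each of E12.5 and E15.5 testis (embryonic days 12.5 and 15.5). All samples are whole testis with no treatment, genotype or strain given in the labels, and the age of the adults is not given either. Each array measured lncRNA and mRNA transcripts in 1 colour (Cy3), and the comparison covers 37820 probes, short DNA strands on the array that each bind 1 transcript sequence.

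In the testis of a mouse at P7 the seminiferous cords hold spermatogonia, the dividing germ cells, among Sertoli cells, which nourish them. Some spermatogonia then copy their DNA a last time and enter meiotic prophase, in which homologous chromosomes pair, form the synaptonemal complex and recombine, so that spermatocytes become a large part of the testis in the second week after birth. Haploid round spermatids follow by about P21, and elongating spermatids, which pack their DNA with transition proteins and protamines, fill the adult tubules. A whole testis mixes all of these with Leydig, peritubular, vessel and immune cells. In such bulk RNA, fewer cells of a type and less RNA per cell cannot be told apart.

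The probe identifiers could not be paired with genes (0 of 37820 matched the gene tables used here), so probes are named by identifier. For the same reason, neither the tissue label nor the entry into meiosis could be checked against marker genes, and the cell type behind a probe is not known. Values are the authors' deposited signals on a log2 scale (the base was inferred from their range, 2.38 to 18.34), so that a difference of 1 is 2-fold. A probe was called where limma gave a Benjamini-Hochberg adjusted p below 0.05 and a change of at least 2-fold. The labels number the replicates but do not say that they came from separate animals, so a p-value reflects the spread of these samples alone and that spread may be technical.

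The P7 and P14 arrays formed 2 tight groups. Across probes, which are not independent replicates, the correlation between arrays ran from 0.979 to 0.985 within P7, from 0.993 to 0.995 within P14 and from 0.940 to 0.957 between them. The median SD of a probe over 3 arrays was 0.20 at P7, 0.12 at P14, 0.49 at P21, 0.28 in the adult and 0.37 at E12.5. E12.5 replicate 2, P21 replicate 1 and Adult replicate 1 stood apart from the other arrays of their stages (lowest within-stage correlations of 0.931, 0.924 and 0.947). Array medians lay between 7.79 and 8.0.

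Rises and falls from P7 to P14 were similar in number. Signal was higher at P14 for 2348 probes (6.21% of all) and lower for 2510 (6.64%), together 4858 or 12.8%. Most changes were modest, with rises at a median of 1.52 and falls at −1.46, and 1688 rises and 2050 falls stayed under 4-fold. Large changes were more often rises: 212 rises and 108 falls reached 8-fold, 86 and 38 reached 16-fold, and 24 and 12 reached 32-fold. The rises started from a median P7 level of 8.01, close to the median of all probes (7.97), and reached 9.95 at P14. The falls started from a higher median of 9.58 at P7 and ended at 7.94. The values of the 3 P7 and 3 P14 arrays did not overlap for 2321 of the rises and 2492 of the falls, and for 52.7% of all probes.

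**Figure D1:**
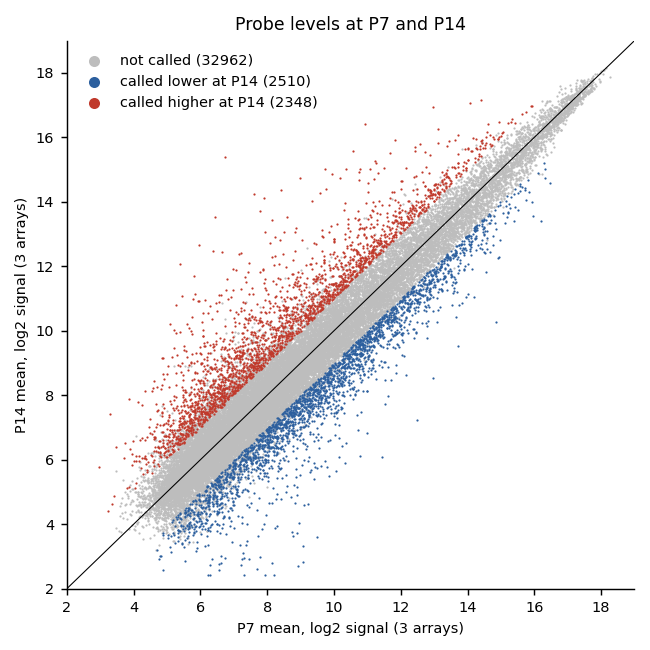
Mean of the 3 P7 arrays (x axis) against mean of the 3 P14 arrays (y axis) for each of 37820 probes, both as log2 signal, with the line of equal levels. The 2348 probes called higher at P14 (red) spread further from the line than the 2510 called lower (blue), and a few blue points lie at P14 levels near the bottom of the scale.

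The number called depended on how strict the rule was. At an adjusted p below 0.01, 3195 probes were called, with 1487 higher at P14. In limma's treat test, which asks for a change beyond 2-fold, 798 were called and the balance turned, with 450 higher and 348 lower. Without P7 replicate 2 the number was 3432. It was 6040 with E12.5 replicate 2 and P21 replicate 1 left out, with 3132 higher and 2908 lower, and 5721 without P21 replicate 1 and Adult replicate 1, with 2635 higher and 3086 lower. A fit to the 6 arrays of P7 and P14 alone called 6064 probes, 3010 higher and 3054 lower.

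The share of called probes increased with signal up to the next to brightest bin and was lower in the brightest. Probes were ranked on their mean over all arrays and divided into 5 bins of 7564. In the dimmest bin 151 were called higher and 237 (3.13%) lower. In the next to brightest it was 9.23% and 10.2%, and in the brightest 8.73% and 7.54%.

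The 6 largest rises had P7 means from 5.39 to 7.90, below the P7 median of all probes (7.97), and were among the bright signals at P14. ASMM9PARTA006223 read 6.80, 6.63 and 6.77 in the 3 P7 arrays and 15.32, 15.44 and 15.42 in the 3 P14 arrays, a rise of 8.66 (SE 0.24, adjusted p = 7.29e-12, limma). It was as low at E12.5 (6.26 ± 0.03) and E15.5 (6.5 ± 0.44), and its level at P21 (15.59 ± 0.49) did not pass the test against P14 (adjusted p = 0.606), so most of its rise over the series lay between P7 and P14. In the adult it stood at 14.86 ± 0.15 (SD, n = 3 arrays for each of these values).

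AV277464_P1, named by a sequence record, read 6.75, 6.20 and 6.35 at P7 and 13.55, 13.57 and 13.44 at P14, a rise of 7.09 (SE 0.18, adjusted p = 2.56e-12). ASMM9PARTA004653 read 6.29, 5.87 and 5.72 at P7 and 12.66, 12.75 and 12.61 at P14, a rise of 6.72 (SE 0.25, adjusted p = 2.65e-10). Both went on rising to P21, by 1.70 (adjusted p = 2.20e-06) and 2.90 (adjusted p = 2.12e-07), and stood at 14.11 ± 0.15 and 14.71 ± 0.31 in the adult (SD, n = 3).

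The other 3 of these probes were highest at P14 and partly lost later. ASMM9PARTA048665 read 5.71, 5.48 and 4.96 at P7 and 12.12, 12.18 and 11.94 at P14 (rise of 6.69, SE 0.44, adjusted p = 6.12e-08), then 9.98 ± 0.24 at P21 and 7.62 ± 0.20 in the adult. MM9LINCRNAEXON11712-_P1, a probe for a long intergenic noncoding RNA by its identifier, read 7.37, 7.87 and 7.61 at P7 and 14.18, 14.27 and 14.26 at P14, a rise of 6.62 (SE 0.37, adjusted p = 1.03e-08). Its level then fell by 1.92 to P21 (adjusted p = 0.000930) and fell by 2.42 to the adult (adjusted p = 9.10e-05), where it was still 2.28 above P7. ASMM9PARTA037163 read 7.88, 7.76 and 8.08 at P7 and 14.50, 13.82 and 14.03 at P14 (rise of 6.21, SE 0.25, adjusted p = 3.24e-10) and 11.29 ± 0.34 in the adult. These 3 probes had higher means at E15.5 than at E12.5 or P7, at 7.32 ± 1.28, 9.62 ± 0.70 and 11.14 ± 0.07 in the same order (SD, n = 3).

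The 6 largest falls shared a different course. They were bright in the adult, moderate at P7 and in the fetal testis, and near the bottom of the scale at P14. ASMM9PARTA035618 read 8.85, 9.27 and 9.08 at P7 and 2.88, 3.20 and 2.38 at P14, a fall with a change of −6.24 (SE 0.33, adjusted p = 5.96e-09), while its mean was 10.77 ± 0.68 (E12.5), 8.46 ± 0.23 (E15.5), 10.91 ± 0.53 (P21) and 17.23 ± 0.04 (adult) (SD, n = 3). ASMM9PARTA035359 read 8.87, 9.07 and 8.79 at P7 and 2.44, 2.43 and 3.19 at P14 (−6.22, SE 0.39, adjusted p = 4.11e-08), and ASMM9PARTA037133 read 9.42, 9.65 and 9.44 at P7 and 3.76, 3.75 and 3.33 at P14 (−5.89, SE 0.27, adjusted p = 1.24e-09). Their adult levels were 17.41 ± 0.05 and 17.42 ± 0.02, near the top of the scale.

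ASMM9PARTA035076 and ASMM9PARTA036387 read 2.44, 2.43 and 2.38 in the P14 arrays, the lowest value of each, after 8.21 ± 0.05 and 7.92 ± 0.09 at P7. The sizes of their falls (−5.79, SE 0.34, and −5.51, SE 0.35) therefore depend on where each array's scale ends. The same holds in part for ASMM9PARTA035359, at the lowest value in P14 replicates 1 and 2, and for ASMM9PARTA035618, at the lowest value in P14 replicate 3, so the order of the largest falls by size is uncertain. ASMM9PARTA021462 had a P7 mean of 9.08 ± 0.13 and read 4.18, 3.32 and 2.45 at P14 (−5.76, SE 0.40, adjusted p = 1.33e-07). All 3 were at 16.18 to 16.71 on average in the adult. Over the whole table, 5 probes had all 3 P14 values within 0.1 of the lowest value of their array, and all 5 were called falls.

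**Figure D2:**
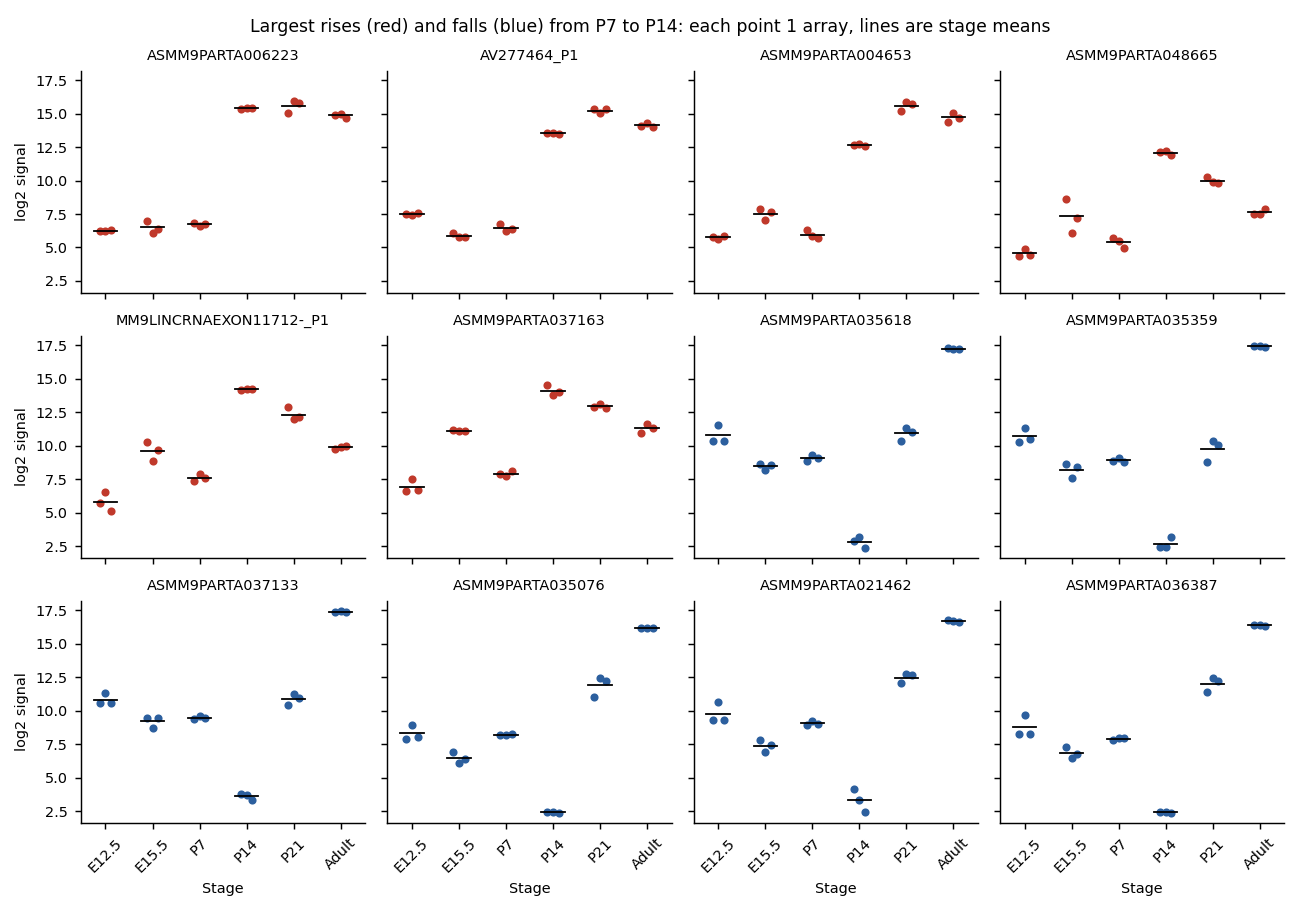
Log2 signal (y axis) at the 6 stages (x axis) for the 6 largest rises (red) and the 6 largest falls (blue) from P7 to P14. Each point is 1 array and each line the mean of 3. The rises stay above their P7 level afterwards, 3 of them at a falling level, and the falls are low at P14 alone, with means between 7.92 and 9.50 at P7 and above 16 in the adult.

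A change was counted as kept at a later stage where that stage against P7 was called in the same direction. P21 against P7 and adult against P7 share the P7 arrays with P14 against P7, so a P7 level that is low or high by chance favours being kept, and the counts that follow describe these arrays and carry no test. Most changes were kept. Of the 2348 rises, 1843 (78.5%) were also higher at P21 than at P7 and 1634 (69.6%) higher in the adult, against 14.3% and 19.9% of all probes. Of the 2510 falls, 1886 (75.1%) were also lower at P21 and 1736 (69.2%) lower in the adult, against 21.3% and 33.5% of all probes.

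With E12.5 replicate 2 and P21 replicate 1 left out, 2122 rises were kept at P21, 1898 in the adult and 1767 at both, and the share of rises kept at both was 56.4% in place of 66.1%. The falls kept were then 2057, 1984 and 1845. With P21 replicate 1 and Adult replicate 1 left out, the rises kept were 1981, 1760 and 1649 and the falls 2124, 1969 and 1840, in the same order.

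Large rises were kept more often than large falls. Of the 212 rises of at least 8-fold, 201 (94.8%) were kept at P21 and 176 (83.0%) in the adult. The shares of all probes were 14.3% and 19.9%. Of the 108 falls of that size, 51 (47.2%) were kept at P21 and 37 (34.3%) in the adult. For all probes it was 21.3% and 33.5%, so the large falls kept in the adult were close to the share of all probes. The difference between large rises and large falls carries no test.

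The largest set of rises, 1551 probes (66.1%), was kept at both later stages, and its level went on increasing. The median of the stage means went from 7.82 (P7) to 9.86 (P14), 11.51 (P21) and 11.83 (adult). In this set 618 probes were called higher again at P21 than at P14 and 12 lower, against 9.20% and 14.3% of all probes. In the adult 856 were higher than at P14 and 47 lower, against 16.8% and 32% of all probes. The set takes only rises called higher than P7 at both later stages, so its definition partly fixes these counts and the later medians. MM9LINCRNAEXON11933+_P1 did not pass the test between P14 and P21 (adjusted p = 0.486) and stood at 6.55 ± 0.25 (P7), 11.12 ± 0.10 (P14), 11.52 ± 0.97 (P21) and 10.42 ± 0.40 (adult). CA585643_P1, named by a sequence record, went from 10.30 ± 0.12 to 13.73 ± 0.07 (rise of 3.44, SE 0.61, adjusted p = 0.000995) and rose by 2.39 again from P21 to adult (adjusted p = 0.00551), with P21 arrays at 13.71, 14.47 and 11.23. CUST_653_PI426073487 rose by 3.61 (SE 0.97, adjusted p = 0.0178), with P7 arrays at 7.12, 5.02 and 4.64 and P14 arrays at 9.14, 9.67 and 8.79. Its adjusted p was between 0.0514 and 0.0743 without P7 replicate 2, P7 replicate 3, P14 replicate 1 or P14 replicate 2.

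Rises kept at P21 and not in the adult numbered 292 (12.4%). Their median went from 7.88 (P7) to 9.94 (P14), 9.75 (P21) and 8.34 (adult). Of these probes 185 were called lower in the adult than at P14, against 12092 of all 37820 probes. Leaving out rises called higher in the adult than at P7 partly fixes this decline. ASMM9PARTA017680 read 6.06, 5.96 and 5.84 at P7 and 10.98, 10.89 and 10.89 at P14, a rise of 4.97 (SE 0.18, adjusted p = 2.65e-10). Its level then fell by 1.78 to P21 (adjusted p = 2.43e-06) and fell by 2.30 to the adult (adjusted p = 1.15e-07), which left it 0.89 above P7 and so under 2-fold.

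Single arrays had a large part in other probes of this set. ASMM9PARTA027019 rose by 5.29 (SE 0.99, adjusted p = 0.00156) and read 11.75, 8.20 and 9.39 in the 3 P21 arrays, and at E12.5 it read 10.95, 6.53 and 11.02. CUST_280_PI426409190 rose by 4.27 (SE 1.20, adjusted p = 0.0218), from 6.74, 6.95 and 7.25 to 11.31, 11.26 and 11.19, but read 5.98 in P21 replicate 1 and 12.95 and 12.85 in the other 2 P21 arrays. Without any 1 of the P14 arrays, or without P7 replicate 1 or 2, its adjusted p was between 0.0601 and 0.0659.

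Rises kept in the adult and not at P21 were few, 83 probes (3.53%), with medians of 9.01 (P14), 8.47 (P21) and 10.18 (adult). The 2 largest barely passed the test. ASMM9PARTA041565 (rise of 2.83, SE 0.90, adjusted p = 0.0415) read 8.06, 5.87 and 6.03 at P7 and 9.37, 9.97 and 9.11 at P14, and ASMM9PARTA008748 (2.48, SE 0.82, adjusted p = 0.0482) read 8.20, 8.87 and 7.77 at P7 and 10.83, 10.65 and 10.81 at P14. ASMM9PARTA041565 had an adjusted p between 0.0518 and 0.161 without P7 replicate 2 or 3, any 1 P14 array, P21 replicate 3, or Adult replicate 2 or 3. ASMM9PARTA008748 had one between 0.0503 and 0.138 without any 1 P7 or P14 array or without P21 replicate 1. All stages enter its SE, with an SD of 2.28 in the adult and 1.32 at P21, against 0.56 at P7 and 0.09 at P14.

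A further 422 rises were kept at neither stage. Their median went from 8.71 (P7) to 10.47 (P14), 9.09 (P21) and 7.81 (adult), so that P14 was their highest stage. In the adult 375 were called lower than at P14, against 12092 of all 37820 probes. The set leaves out rises called higher than P7 at either later stage, so its definition partly fixes this peak and the later decline. Not being kept includes probes whose later difference was in the same direction and missed the threshold: ASMM9PARTA020179 rose by 3.76 (SE 1.12, adjusted p = 0.0290) and was 2.26 above P7 in the adult with an adjusted p of 0.0900. The adjusted p of its rise was between 0.0669 and 0.122 without P7 replicate 2 or 3 or any 1 P14 array. The count rested on single arrays more than any other. It was 213 without P7 replicate 2, 239 without P7 replicate 3, 237, 244 and 259 without P14 replicates 1, 2 and 3, and 879 with E12.5 replicate 2 and P21 replicate 1 left out.

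Differences between replicates of other stages moved with these 422 probes. Their median was 9.72 in P21 replicate 1 and 8.74 and 9.02 in the other 2 P21 arrays, and 8.08 in E12.5 replicate 2 and 9.02 and 9.04 in the other 2 E12.5 arrays. Within P7 it was 9.18 in replicate 1 and 8.60 and 8.40 in the other 2. For 37.9% of them the signal in P21 replicate 1 was at least 2-fold above the mean of the other 2 P21 arrays, against 17.2% of all probes, and for 33.6% the signal in E12.5 replicate 2 was at least 2-fold below the other 2, against 12.8% of all probes. ASMM9PARTA026808 shows the pattern, at 13.46, 7.30 and 13.34 in the E12.5 arrays and 11.51, 8.29 and 9.42 in the P21 arrays, around a rise from 7.94, 7.27 and 8.40 at P7 to a P14 mean of 11.93 ± 0.20 (4.06, SE 1.20, adjusted p = 0.0289, and between 0.0674 and 0.105 without P7 replicate 1 or 2 or any 1 P14 array). All stages enter the SE of ASMM9PARTA026808, with an SD of 3.52 at E12.5, against 0.57 at P7. The part of these array differences in the count was not tested.

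**Figure D3:**
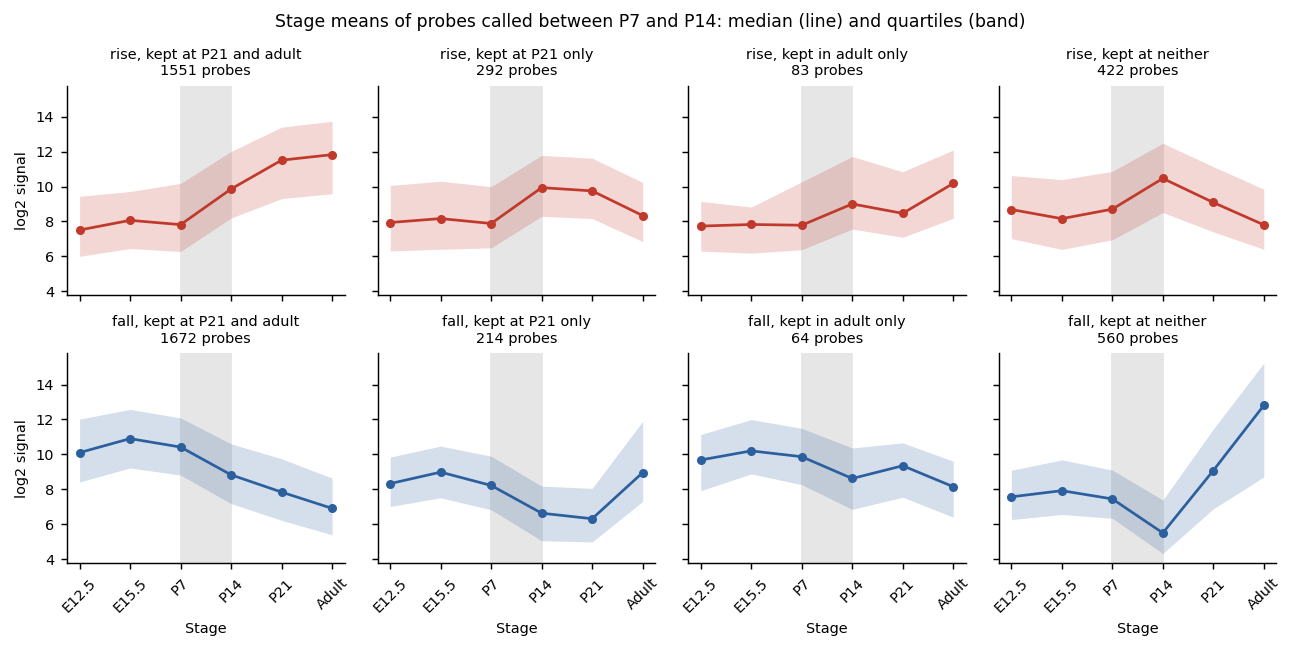
Log2 signal (y axis) at the 6 stages (x axis) for the probes called higher (red, upper row) or lower (blue, lower row) at P14 than at P7, divided by whether the change was kept at P21 and in the adult. Lines join the medians of the stage means, bands span the quartiles and the grey bar marks P7 to P14. The 560 falls kept at neither stage drop to a median of 5.50 at P14 and reach 12.80 in the adult.

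Falls kept at both later stages were the largest set of all, with 1672 probes (66.6% of falls), and their signal declined stage by stage after E15.5. The median went from 10.90 at E15.5 through 10.42 (P7), 8.83 (P14) and 7.84 (P21) to 6.91 in the adult. Of these probes 702 were called lower again at P21 than at P14 and 3 higher, against 14.3% and 9.20% of all probes. The set takes only falls called lower than P7 at both later stages, so its definition partly fixes these counts and the decline. ASMM9PARTA029934 read 14.94, 14.78 and 14.80 at P7 and 10.36, 10.42 and 10.07 at P14, a change of −4.56 (SE 0.22, adjusted p = 2.87e-09), and stood at 8.41 ± 0.35 in the adult. ASMM9PARTA028515 read 12.88, 13.04 and 13.02 at P7 and 8.52, 8.59 and 8.48 at P14 (−4.45, SE 0.19, adjusted p = 6.55e-10), and its level fell by 1.11 to P21 (adjusted p = 0.000372) and fell by 2.17 to the adult (adjusted p = 3.21e-07). Both had been bright in the fetal testis, at 14.30 ± 0.05 and 14.51 ± 0.15 at E15.5 (SD, n = 3).

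Falls kept at P21 and not in the adult numbered 214 (8.53%), with medians of 8.22 (P7), 6.63 (P14), 6.31 (P21) and 8.95 (adult). The 2 largest were among the brightest signals of the adult testis. ASMM9PARTA031972 read 11.33, 11.58 and 11.39 at P7, 6.37, 5.96 and 5.94 at P14 (−5.34, SE 0.35, adjusted p = 6.61e-08) and 18.08 ± 0.03 in the adult. ASMM9PARTA031867 read 12.29, 12.62 and 12.57 at P7, 7.27, 7.35 and 7.06 at P14 (−5.26, SE 0.62, adjusted p = 2.85e-05), 6.48, 10.34 and 9.39 at P21 and 17.93 ± 0.04 in the adult. At E12.5 they stood at 14.49 ± 0.52 and 15.21 ± 0.33 (SD, n = 3).

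Falls kept in the adult and not at P21 numbered 64 (2.55%). ASMM9PARTA045397 read 7.28, 7.39 and 7.10 at P7, 4.67, 3.89 and 3.55 at P14 (−3.22, SE 0.46, adjusted p = 0.000151), 10.50, 10.73 and 10.48 at P21 and 2.95, 5.06 and 5.19 in the adult, so that it was called higher at P21 than at P7 and its highest stage was P21. ASMM9PARTA033946 (−3.27, SE 0.80, adjusted p = 0.00990) was split within P21, where replicate 1 read 4.52 and the others 8.70 and 8.51.

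The 560 falls kept at neither stage (22.3%) dipped at P14 and were high afterwards. Their median stood near 7.57 at E12.5 and 7.92 at E15.5, was 7.45 at P7, sank to 5.50 at P14, and then reached 9.07 (P21) and 12.80 (adult). In this set 400 probes (71.4%) were called higher in the adult than at P7, and 262 of these were also higher at P21 than at P7. In the whole set 266 were higher at P21 than at P7, whatever their adult call. Of all probes 19.9% were higher in the adult and 14.3% higher at P21, each counted alone. The set leaves out probes called lower at either stage, so its definition partly fixes these counts. The medians were 7.55, 7.61 and 7.34 in the P7 arrays and 5.59, 5.55 and 5.45 in the P14 arrays, an order that the choice of these probes fixes. Without P21 replicate 1 and Adult replicate 1 there were 833 falls kept at neither stage, or 27.0% of falls, and 595 of them were higher in the adult than at P7. Leaving out E12.5 replicate 2 with P21 replicate 1 gave 712 and 471.

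The calls were also set against the adult level of each probe, which does not enter the size of the change from P7 to P14. The adult arrays do enter the spread that decides the calls, since 1 fit covers all arrays, and without Adult replicate 1 there were 5191 calls, 2791 of them lower. Of the 834 probes with an adult mean of 16 or more, 117 (14.0%) were called lower at P14 and 99 (11.9%) higher. They held 48 of the 108 falls of at least 8-fold, or 44.4%, while making up 2.21% of all probes. With an adult mean under 6, 7.20% were called lower and 1.44% higher, and between 12 and 14 it was 5.44% and 15.8%. Rises were thus most frequent among probes bright in the adult, and falls in the brightest bin.

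The 117 falls in the brightest group had medians of 8.86, 9.0 and 8.85 in the P7 arrays, 5.88, 6.01 and 5.76 in the P14 arrays, 11.04 to 12.17 at P21 and 16.86, 16.80 and 16.88 in the adult. In the fetal testis they were at 9.07, 10.35 and 9.06 in the E12.5 arrays and 8.86, 8.35 and 8.71 in the E15.5 arrays. The P14 arrays were lowest, and the choice of falls that are bright in the adult fixes their place below the P7 and adult arrays. E12.5 replicate 2 was above the other fetal arrays. What gives signal for such probes at E12.5, E15.5 and P7 was not tested. The 99 rises in the same group were at 12.85, 12.84 and 13.06 at P7 and between 14.98 and 15.02 at P14.

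**Figure D4:**
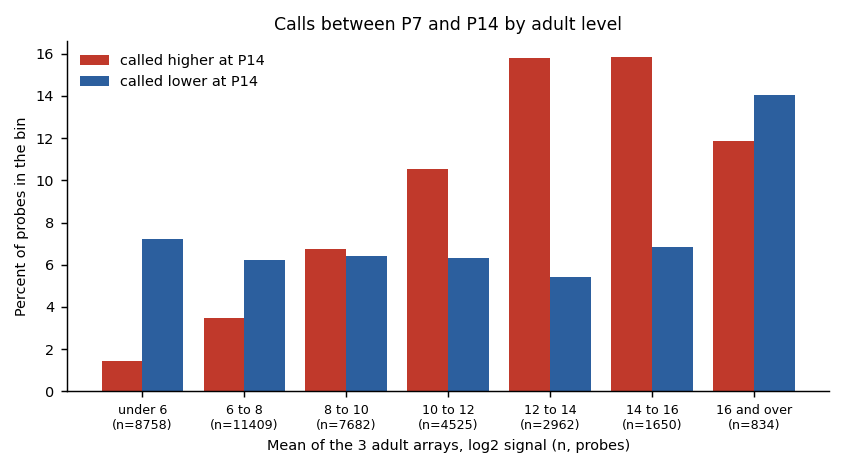
Percent of probes called higher (red) or lower (blue) at P14 than at P7 (y axis) in bins of the mean adult log2 signal (x axis, with the number of probes in each bin). Rises increase from 1.44% in the dimmest bin to 15.8% at 14 to 16, and falls are most frequent in the brightest bin (14.0%).

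The later change from P21 to adult takes its means from other arrays than the change from P7 to P14, but the calls of both use the spread over all 18 arrays, so they are not independent. Of the 2348 rises 331 (14.1%) were called higher in the adult than at P21 (215 without Adult replicate 2) and 548 (23.3%) lower, against 10% and 20.9% of all probes. Of the 2510 falls 575 (22.9%) were higher in the adult (879 without P21 replicate 1 and Adult replicate 1) and 816 (32.5%) lower, so that both shares of the falls were above those of all probes. These shares carry no test. Among the 560 falls kept at neither stage 367 were called higher in the adult than at P21 and 3 lower, which the definition of the set partly fixes.

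The fetal change from E12.5 to E15.5 likewise has its own means and the shared spread. Of the rises 576 (24.5%) were called higher at E15.5 than at E12.5 and 278 (11.8%) lower, against 10.6% and 9.46% of all probes. Of the falls 734 (29.2%) were higher at E15.5 and 192 (7.65%) lower. The median fetal change was 0.13 for the rises, 0.55 for the falls and 0.12 for all probes. Among the falls, the signal in E12.5 replicate 2 was at least 2-fold above the other E12.5 arrays for 30.6%, against 13.2% of all probes, and the part of this array in the fetal shares was not tested.

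Probe families, read from the text of the identifiers, differed in how often they were called and which way. ASMM9PARTA probes made up 34232 of the probes, and 13.2% were called. Of 2480 probes with lincRNA in the identifier 225 (9.07%) were called, 131 higher and 94 lower. The lincRNA count depended on single arrays, at 137 without P7 replicate 2 and 144 without P14 replicate 1. Their median signal over all arrays was 6.96, and that of all probes 7.93. From the dimmest to the next to brightest of the 5 bins, 2.59%, 7.01%, 10.5% and 18.8% of lincRNA probes were called, against 5.51%, 9.88%, 14.1% and 19.4% of ASMM9PARTA probes. In the brightest bin it was 44 of 203 lincRNA probes (21.7%) and 1146 of 7156 ASMM9PARTA probes (16%). These shares carry no test.

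The lincRNA group was not uniform. Among 1840 probes named MM9LINCRNAEXON, 105 (5.71%) were called higher and 89 (4.84%) lower. Among 394 named humanlincRNA it was 18 (4.57%) and 3 (0.76%), and among 246 named mouselincRNA 8 (3.25%) and 2 (0.81%). Of all probes 6.21% were called higher and 6.64% lower. The median signal was 6.40 for humanlincRNA and 6.46 for mouselincRNA probes, below the 7.93 of all probes. Of the 131 lincRNA rises 101 were kept at both later stages (77.1%, against 66.1% of all rises), and of the 94 falls 74 (78.7%, against 66.6%). MM9LINCRNAEXON11528-_P1, a lincRNA fall kept at both, went from 9.83, 10.10 and 10.08 at P7 to 7.30, 7.44 and 7.32 at P14 (−2.65, SE 0.34, adjusted p = 5.90e-05). The largest lincRNA fall, humanlincRNA0789+_P1 (−2.87, SE 0.79, adjusted p = 0.0197), rested on P7 arrays that read 7.77, 8.17 and 5.46, and its adjusted p was between 0.0606 and 0.103 without P7 replicate 1 or 2 or P14 replicate 2 or 3.

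Custom probes of one design stood out for falls. Of 245 probes named CUST with the suffix PI426409190, 45 were called lower at P14 and 16 (6.53%) higher. The 282 with the suffix PI426073487 had 10 and 15, and of all probes 6.64% were lower and 6.21% higher. Of the 45 falls 33 were kept at neither stage, against 22.3% of all falls. The PI426409190 probes were also brighter, with a median signal of 9.45, against 7.05 for PI426073487 and 7.93 for all probes. In the signal bin that holds 9.45, the next to brightest, 10.2% of probes were called lower. These shares carry no test, and the part of signal level in them was not tested. CUST_224_PI426409190 read 10.19, 9.92 and 10.08 at P7, 5.51, 6.01 and 5.44 at P14 (−4.41, SE 0.24, adjusted p = 9.86e-09), 15.74 ± 0.24 at P21 and 17.38 ± 0.04 in the adult. CUST_316_PI426409190 followed almost the same values, with −4.39 (SE 0.26, adjusted p = 2.78e-08) and 17.16 ± 0.09 in the adult. Whether the probes of this design share targets is not known, so they cannot be counted as independent.

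Of 581 probes named by a sequence record 45 (7.75%) were called, 22 higher and 23 lower, against 12.8% of all probes called. AK132675_P1 had the dip described above, with 9.49, 9.47 and 9.60 at P7, 6.71, 6.74 and 6.39 at P14 (−2.91, SE 0.33, adjusted p = 1.87e-05) and 17.25 ± 0.01 in the adult. AA981261_P1 declined throughout, from 12.42, 12.60 and 12.33 at P7 to 10.11, 9.66 and 10.05 at P14 (−2.51, SE 0.58, adjusted p = 0.00686) and to 5.97 ± 1.38 in the adult (SD, n = 3).

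**Figure D5:**
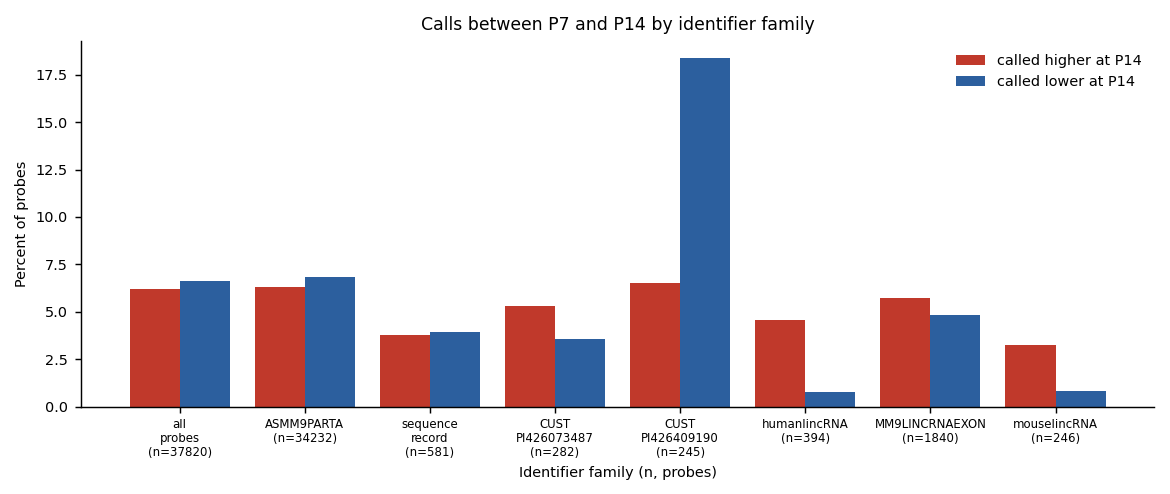
Percent of probes called higher (red) or lower (blue) at P14 than at P7 (y axis) in each family of probe identifiers (x axis, with the number of probes). The CUST probes with the suffix PI426409190 have the highest share of falls, 45 of 245 against 6.64% of all probes.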

How the data were processed

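The authors deposited 1 table of 37820 probes by 18 arrays, taken as log2 signals; no value was missing and every column was used. The submitters' processing notes name Agilent Feature Extraction 11.0.1.1. What log base, normalization, centring and probe filter the authors used is not given in the sources used here, and no scanner files or detection flags were used. One linear model with a mean for each of 6 stages covered all 18 arrays (limma 3.58.1, R 4.3.3, lmFit and eBayes; 12 residual and 3.20 prior degrees of freedom), with p-values adjusted over all probes within each of 7 contrasts. The shared spread includes the variable E12.5 and P21 arrays. The fit was tested on simulated data: for P14 against P7 over 37820 probes it recovered 52% of changes of 1.5 and 86% of changes of 2.5. The simulation gave each probe independent noise of the same spread at all stages. These shares need not hold for the real arrays, whose spread differed by stage. Named probes were the 6 largest called rises and falls with no overlap between P7 and P14, the 2 largest of each kept pattern and the 2 largest each way in the lincRNA, CUST and sequence record families. The comparison, members and lists were chosen with earlier results of these data known. Gene lists fixed on symbols could not be used, since no probe was paired with a gene. The number of arrays limits the precision. Alternatives are given in the closing section. Plots were drawn with matplotlib 3.10.9.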

Additional observations from a re-analysis of the deposited data

How the results depend on the processing

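The number of arrays and the unknown normalization limit every count, and no detection limit was known. Of 1126 recomputed values over 24 settings 1049 kept their direction and call or stayed within 1.5 times; no named probe reversed, and 7 of 34 lost their call when a single array was left out. The counts of falls kept at neither and higher in the adult, of changes of at least 8-fold, of adult against P21 and of lincRNA probes were chosen after seeing the data. At an adjusted p below 0.01 there were 3195 calls, 1487 of them higher, 205 rises kept at neither and 120 lincRNA probes; in adult against P21 170 rises were higher, 307 rises lower and 540 falls lower. In the treat test there were 798 calls (450 higher, 348 lower), 393 rises kept at P21, 353 in the adult, 349 at both and 53 at neither, 210 falls kept at P21, 193 in the adult, 183 at both and 128 at neither (118 higher in the adult), 21 lincRNA probes and, in adult against P21, 7 rises higher, 29 rises lower, 130 falls higher and 35 falls lower. The treat test put 56.4% of calls higher, against 48.3%. With no minimum change, 2626 falls were kept in the adult and 2543 at both, and 578 rises were higher, 964 rises lower and 1597 falls lower in adult against P21. Without E12.5 replicate 2 and P21 replicate 1, 879 rises were kept at neither; without P21 replicate 1 and Adult replicate 1, 879 falls were higher in adult against P21. With single arrays left out, rises kept at neither ran from 213 (without P7 replicate 2; 239 without P7 replicate 3, and 237, 244 and 259 without P14 replicates 1, 2 and 3) to 535, falls higher in adult against P21 from 436 to 785, rises higher in adult against P21 from 215 (without Adult replicate 2) to 430, and lincRNA probes from 137 (without P7 replicate 2; 144 without P14 replicate 1) to 258, or to 274 without P21 replicate 1 and Adult replicate 1. Same-numbered P7 and P14 arrays deviated together with r between −0.0003 and 0.169, and differently numbered ones with r between −0.154 and 0.048. With 3 arrays a stage, these values cannot decide whether the numbers pair the arrays. A replicate block gave 5008 calls, 2458 higher and 2550 lower. The causes were not tested.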

Other observations

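Among lincRNA probes, 625 numbers had a probe for each strand, marked + and −. From P7 to P14 both probes of a pair were called in 5 pairs, 1 of the 2 in 94 and neither in 526. Of all 2480 lincRNA probes 225 (9.07%) were called, so a few pairs would have both called even if their probes were unrelated. The pair counts carry no test and are not a result about paired probes. Both rose in 3 pairs, both fell in 1, and in 1 they went opposite ways. In that pair MM9LINCRNAEXON11556+_P1 rose by 1.07 (adjusted p = 0.0156, limma), from 10.76 to 11.83, and reached 13.15 in the adult, while MM9LINCRNAEXON11556-_P1 fell by 2.03 (adjusted p = 0.000232), from 12.81 to 10.79, and stood at 10.63 in the adult. In MM9LINCRNAEXON10898 the + probe fell by 2.56 and the − probe fell by 1.94 (adjusted p = 1.92e-05 and 0.000603). These pairs were chosen after their values were seen, and whether the probes of a pair bind transcripts of both strands was not tested.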
